A study of Mus musculus with 2 samples.

Results

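The genes *Cx3cr1*, *Tmem119*, *Fcrls*, *Gpr34*, *Gdf3*, *C3ar1* and *Ms4a7*, most of which are known from microglia, the resident macrophages of the brain, were followed through the cells of tumor-bearing mouse liver. All 7 were found by symbol among the 32589 genes of the count tables, each once. They were selected on the comparison described here, with its outcome known, so the differences between the libraries are given as descriptions and not as tests.

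Both libraries were single-cell RNA-Seq of livers with cholangiocarcinoma (CCA), a bile duct tumor induced by hydrodynamic injection of plasmids for an activated Notch receptor and a myristoylated AKT kinase. All animals carried the shYT genotype, with doxycycline-inducible shRNAs against *Yap* and *Taz* that are expressed in the whole body, macrophages included. Doxycycline was given from day 25. The control library (shYT_PBS) came from animals that received PBS, and the other (shYT_antiPD1) from animals that received the PD-1 antibody RMP1-14 on days 26, 29 and 32. Livers were taken on day 33, and the labels give neither the age and the sex of the animals nor the shYT line. The study describes several animals per group, and how they were combined in a library is not stated. There was 1 library per group, so no difference has a replicate check, and animal, library and treatment cannot be told apart.

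The libraries held 19397 (PBS) and 19451 (anti–PD-1) cell barcodes, and 15531 and 16360 cells were kept. These had between 500 and 5000 genes detected and up to 10% of their UMIs (unique molecular identifiers, 1 per captured transcript) from mitochondrial genes. Kept cells had a median of 3159 and 2990 UMIs, and 145 of the kept barcodes were shared by the libraries. *Xist*, the RNA that silences an X chromosome in females, had 18452 and 11 UMIs, while 4 Y-linked genes had 3113 and 15323 UMIs. The PBS library thus held cells of both sexes and the anti–PD-1 library nearly only male cells, and the members are therefore also given in male-marked cells below.

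The 7 genes act at the surface of the macrophage, apart from 1 secreted factor. CX3CR1 is the receptor of the chemokine fractalkine, C3AR1 the receptor of the complement fragment C3a, and GPR34 a receptor of lysophosphatidylserine. FCRLS is a scavenger receptor related to Fc receptors, MS4A7 a 4-pass membrane protein of the MS4A family, and TMEM119 a membrane protein of microglia and osteoblasts. GDF3 is a secreted member of the TGF-β superfamily. In the liver the main resident macrophage is the Kupffer cell, which expresses *Clec4f*, whereas macrophages that derive from monocytes at first lack it.

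Cells were placed in classes by marker lists that hold none of the 7 genes. A class name here means that the cells had the markers of that cell type. Macrophages below the Kupffer score limit and without a *Clec4f* UMI, here called tumor-associated macrophages (TAMs), numbered 2829 PBS cells (18.2%, exact binomial 95% interval 17.6 to 18.8) and 964 anti–PD-1 cells (5.89%, 5.54 to 6.26). Kupffer cells were 897 and 1560 cells, and classical monocytes 405 and 314 cells. A further 553 and 895 macrophages (3.56% and 5.47% of kept cells) had a low Kupffer score but a *Clec4f* UMI. The TAM share in each library thus depends on the *Clec4f* gate. Of the TAMs, 3.68% and 10.6% had a lead over the next class of less than 0.1 in the score, where the smallest lead allowed was 0.05.

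The TAMs had the markers of macrophages, such as *C1qa* (4332 and 3963 UMIs per 1000000 UMIs of the class, CPM) and *Adgre1* (437.4 and 449.2 CPM). The defining genes of microglia were split. *Sall1*, the transcription factor of microglia, was at 1.06 and 1.11 CPM, and the microglial lectin *Siglech* at 2.25 and 1.42 CPM. *P2ry12*, a microglial purinergic receptor, was detected, at 89.5 and 53.3 CPM, and was at 149.5 and 122.0 CPM in Kupffer cells. The 7 genes are called by name and the cells macrophages.

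Promoter sequence is shown for the members whose start sites the RefSeq table holds and whose window lies outside annotated exons, but for 4 bases of the *C3ar1* window. The table (build GRCm38.p6) held 4 of the 7 members with 5 start sites. Each window is the 250 bases before the start, read 5′ to 3′ on the gene's strand. *C3ar1* lies at chr6:122856158-122856407 on the reverse strand. *Ms4a7* has 2 start sites, at chr19:11336147-11336396 and at chr19:11334696-11334945, both on the reverse strand. Capitals mark TGANTCA, the binding motif of AP-1 factors such as FOS and JUN.
C3ar1: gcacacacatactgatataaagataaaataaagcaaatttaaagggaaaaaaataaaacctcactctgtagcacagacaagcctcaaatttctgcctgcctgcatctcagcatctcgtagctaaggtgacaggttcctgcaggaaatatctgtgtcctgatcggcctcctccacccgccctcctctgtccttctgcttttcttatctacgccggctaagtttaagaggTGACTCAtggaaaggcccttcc
Ms4a7 first start: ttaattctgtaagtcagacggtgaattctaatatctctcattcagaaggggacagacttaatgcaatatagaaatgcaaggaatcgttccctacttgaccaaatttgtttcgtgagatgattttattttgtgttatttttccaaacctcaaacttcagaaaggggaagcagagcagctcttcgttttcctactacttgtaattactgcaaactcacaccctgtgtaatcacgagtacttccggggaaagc
Ms4a7 second start: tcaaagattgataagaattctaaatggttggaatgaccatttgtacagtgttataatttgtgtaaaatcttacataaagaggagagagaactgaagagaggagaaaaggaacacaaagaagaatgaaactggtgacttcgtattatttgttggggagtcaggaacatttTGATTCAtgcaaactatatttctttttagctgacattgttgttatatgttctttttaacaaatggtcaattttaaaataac

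TGANTCA was found 22 to 16 bases before the start of *C3ar1* and 81 to 75 bases before the second start of *Ms4a7*. It was in neither the *Cx3cr1* nor the *Fcrls* window, nor before the first *Ms4a7* start. Of 32851 windows of the same length in the table, 6.75% held it on either strand. GAGGAA, a core sequence bound by the macrophage factor PU.1, was in the *Fcrls* window, 144 to 139 bases before the start, and in 23.3% of all windows. Annotated exons cover 136 of the 250 bases of the *Fcrls* window and all 250 of the *Cx3cr1* window, which are therefore not shown. TTCNNNGAA, bound by STAT factors and held by 7.02% of all windows, was in none of the 5. No motif overlapped another in these windows, both strands were searched, and a match is a description of the letters and not a site.

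The members' levels were highest in the non-Kupffer macrophages, with 1 exception in 1 library. Across 16 classes with at least 50 cells in each library, 1 of the 2 non-Kupffer macrophage classes ranked first for each of the 7 genes under PBS and for 6 of 7 under anti–PD-1. In the PBS library, TAMs were 28.3-fold (*Gpr34*) to 60.6-fold (*Tmem119*) above the median of 7 lymphoid, stromal and epithelial classes. The same ratio in the anti–PD-1 library ran from 12.1-fold (*Gpr34*) to 62.3-fold (*Ms4a7*). That median was taken as background. Single classes lay above it, such as fibroblasts for *Tmem119* and NK and T cells for *Gpr34*.

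**Figure D1:**
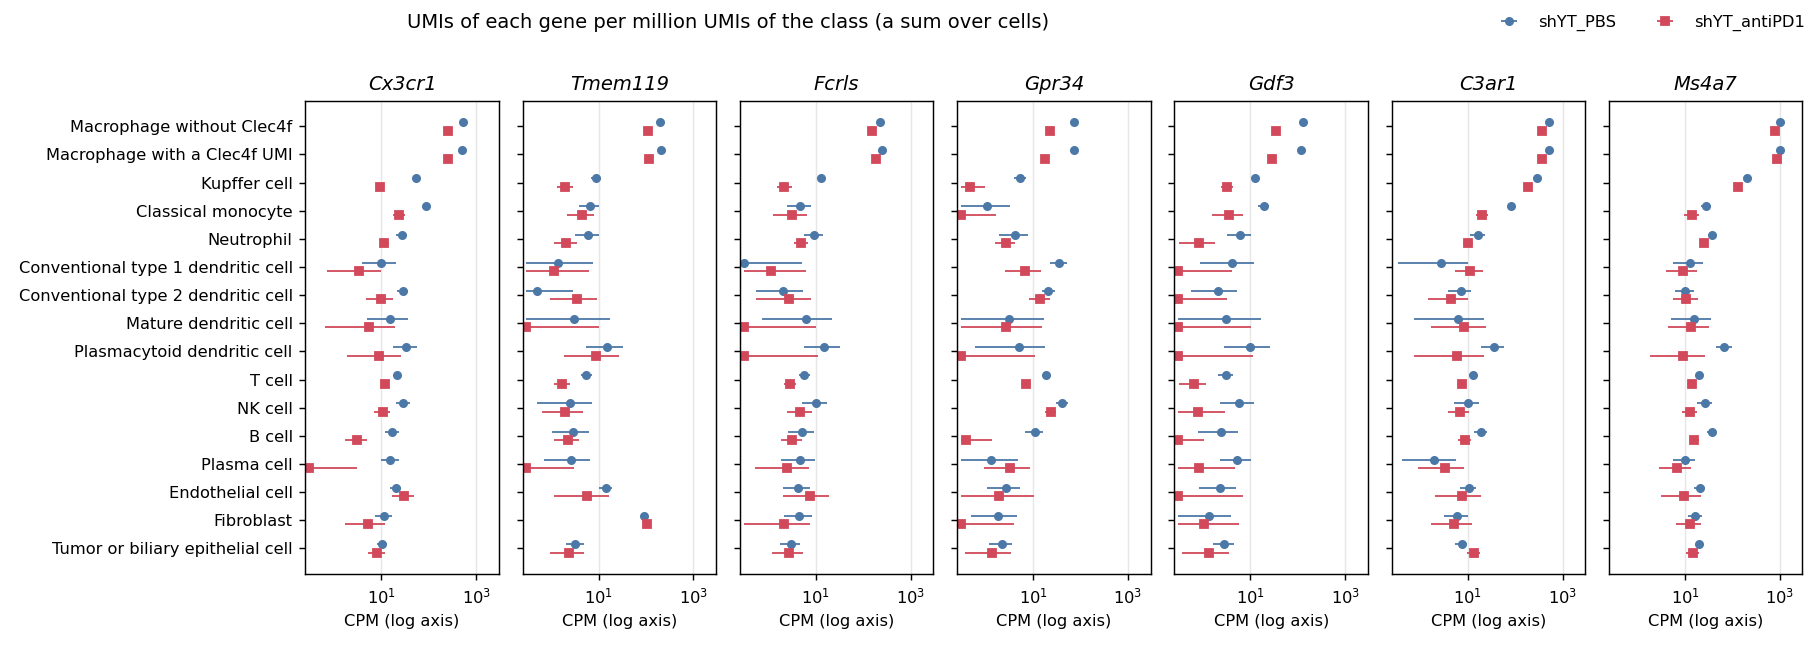
Level of each gene (CPM, log axis, values under 0.3 are drawn at 0.3) in 16 classes. Circles show the PBS and squares the anti–PD-1 library, 1 library each, and lines show exact Poisson 95% intervals. The 2 non-Kupffer macrophage classes stand above the others for most genes, and *Tmem119* is also high in fibroblasts.

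Fractalkine receptor *Cx3cr1* (ENSMUSG00000052336) was at 526.0 CPM in PBS TAMs (exact Poisson 95% interval 516.8 to 535.3) and at 257.0 CPM in anti–PD-1 TAMs (244.7 to 269.8). In the PBS library, macrophages with a *Clec4f* UMI came next, at 502.7 CPM (484.0 to 522.0), an interval that overlaps that of TAMs. Classical monocytes followed at 85.8 CPM and Kupffer cells at 54.2 CPM. In the anti–PD-1 library the monocytes and Kupffer cells were at 24.0 and 9.26 CPM, against 11.9 CPM in T cells, and the intervals of Kupffer cells (7.77 to 10.95) and T cells (10.24 to 13.73) overlap there. Among classes with at least 50 cells in each library, its ligand gene *Cx3cl1* was highest in PBS fibroblasts, at 176.6 CPM. In anti–PD-1 fibroblasts the ligand gene was at 80.7 CPM, a log2 ratio of −1.08 (−1.43 to −0.75).

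*Tmem119* (ENSMUSG00000054675) was at 197.6 CPM in PBS TAMs (191.9 to 203.3) and 112.8 CPM in anti–PD-1 TAMs (104.7 to 121.4). Outside macrophages it was found in fibroblasts, at 89.2 CPM (77.2 to 102.5) and 106.9 CPM (87.1 to 129.7). The fibroblast level did not differ beyond counting error, and in the anti–PD-1 library the intervals of TAMs and fibroblasts overlap. *Tmem119* was thus not particular to macrophages in this tissue.

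*Fcrls* (ENSMUSG00000015852) had the narrowest distribution. Non-Kupffer macrophages held 94.6% (PBS) and 92.3% (anti–PD-1) of its UMIs. It was at 226.5 CPM in PBS TAMs (220.5 to 232.7) and 155.6 CPM in anti–PD-1 TAMs (146.0 to 165.6), while Kupffer cells were at 12.9 and 2.18 CPM.

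The lysophosphatidylserine receptor gene *Gpr34* (ENSMUSG00000040229) was the only member that was not highest in macrophages in both libraries. In PBS TAMs it was at 74.2 CPM (70.7 to 77.7), and macrophages with a *Clec4f* UMI were at 72.1 CPM (65.1 to 79.7), intervals that overlap. Next came NK cells at 41.3 CPM (30.6 to 54.4) and conventional type 1 dendritic cells at 34.6 CPM (22.4 to 51.1). In the anti–PD-1 library NK cells were at 23.3 CPM (17.7 to 30.1) and TAMs at 22.8 CPM (19.2 to 26.8), intervals that overlap. T cells went from 19.1 to 6.94 CPM. The share of all *Gpr34* UMIs that lay in non-Kupffer macrophages went from 79.9% to 49.5%. That share was lower for the other members too, such as *C3ar1* (82.3% and 61.5%), and TAMs were a smaller part of the anti–PD-1 cells.

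*Gdf3* (ENSMUSG00000030117), the secreted factor, was at 129.5 CPM in PBS TAMs (125.0 to 134.2) and 34.0 CPM in anti–PD-1 TAMs (29.6 to 38.9). Classical monocytes were at 19.3 CPM (14.4 to 25.2) in the PBS library and 3.56 CPM (1.54 to 7.02) in the other. Kupffer cells were at 12.6 and 3.20 CPM.

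The remaining pair was shared with Kupffer cells. The C3a receptor gene *C3ar1* (ENSMUSG00000040552) was at 507.7 CPM in PBS TAMs (498.6 to 516.9) and 369.6 CPM in anti–PD-1 TAMs (354.7 to 384.9), with Kupffer cells at 283.8 and 188.6 CPM. *Ms4a7* (ENSMUSG00000024672) was at 1028 CPM (1015 to 1041) and 788.0 CPM (766.3 to 810.2) in TAMs, with Kupffer cells at 201.4 and 128.5 CPM. For both genes the intervals of TAMs and Kupffer cells do not overlap in either library. Among classes with at least 50 cells in each library, a set without hepatocytes, *C3*, the precursor of the C3AR1 ligand, was highest in fibroblasts. It was at 709.4 and 1886 CPM there and at 133.9 and 214.3 CPM in TAMs.

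In TAMs all 7 members were lower in the anti–PD-1 library, and 3 of 7 were at least 2-fold lower. Of the 9851 genes with a mean of at least 5 CPM, 0.528% were at least 2-fold lower in this class and 3.86% at least 2-fold higher. The count of members was fixed in part by how they were chosen and is not read against that background. The members' median log2 ratio was −0.78, beside −0.14 for all genes, where every ratio is anti–PD-1 over PBS of CPM plus 5. With members under 5 CPM included, all 7 were also below 0 in neutrophils, plasmacytoid dendritic cells, T cells, NK cells and B cells. Their medians there were −0.53, −1.59, −0.51, −0.71 and −0.81. In the other dendritic cells, plasma cells, endothelial cells, fibroblasts and epithelial cells, 4 to 6 of 7 were below 0. The part of free RNA in these values was not tested.

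*Gdf3* had a log2 ratio of −1.79 (−1.96 to −1.61), from 3053 to 215 UMIs, and ranked 3 from the lowest of all genes. Among TAMs with a Y-linked UMI and no *Xist* UMI, described below, it was at −0.69 (−0.98 to −0.40), short of 2-fold. *Gpr34* had −1.51 (−1.72 to −1.30), at rank 10, and *Cx3cr1* −1.02 (−1.09 to −0.95), at rank 51. The 2-fold call of *Cx3cr1* is a close one, since it was just under 2-fold lower where cells needed 4 detected class markers or had no upper limit on genes, and at −0.89 with median of ratios scaling and −0.71 in interferon-low TAMs. Just outside the 2-fold limit lay *Tmem119*, at −0.78 (−0.89 to −0.67). The other 3 were closer to the bulk of genes, with *Fcrls* at −0.53, *C3ar1* at −0.45 and *Ms4a7* at −0.38 (−0.43 to −0.34).

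**Figure D2:**
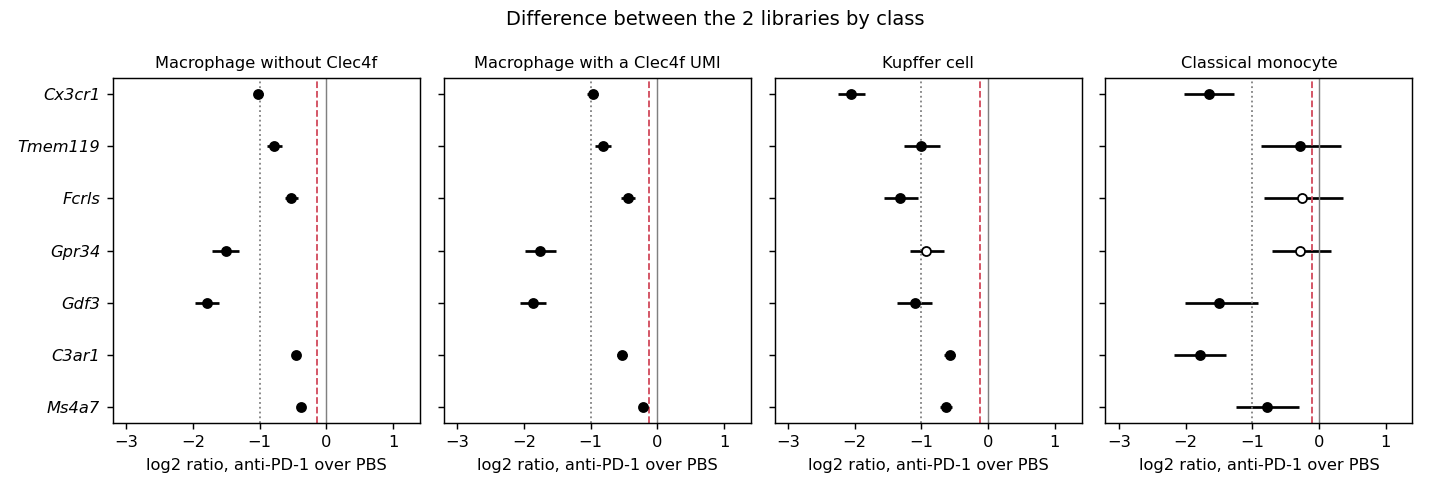
Log2 ratio (anti–PD-1 over PBS, CPM plus 5) of each gene in 4 classes, with 95% intervals for counting error. Open points had a mean under 5 CPM. The dashed line is the median of all genes, the dotted line marks a 2-fold decrease, and every point lies left of 0.

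The macrophages with a *Clec4f* UMI showed the same order of members in their extremes. *Gdf3* was at −1.86 and *Gpr34* at −1.75, *Cx3cr1* at −0.97 and *Ms4a7* at −0.21 (−0.26 to −0.16).

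In Kupffer cells, 3 of the 6 members that passed the filter were at least 2-fold lower, where 0.505% of genes were. As in TAMs, the count was fixed in part by how the members were chosen and is not read against that share. *Cx3cr1* was at −2.05 (442 and 136 UMIs), *Fcrls* at −1.32 (105 and 32 UMIs) and *Gdf3* at −1.10 (103 and 47 UMIs). With 5 CPM added, *Tmem119* was just short of 2-fold, at −0.9996 (73 and 29 UMIs). Its CPM alone, 8.94 and 1.97, were 4.53-fold apart. *Gpr34*, with 44 and 7 UMIs (5.39 and 0.477 CPM), did not pass the filter. In Kupffer cells with a Y-linked UMI and no *Xist*, described further below, *Cx3cr1* was at −1.98 and *Fcrls* at −1.29. *Gdf3* was at −0.10 (−0.79 to 0.39) there, on 4 and 27 UMIs (2.96 and 2.41 CPM). With 5 CPM added, a PBS level of 2.96 CPM cannot give a ratio of −1, so no 2-fold decrease could be seen. *Tmem119* was at −1.64 (−2.14 to −1.12) in these Y-marked Kupffer cells, on 23 and 23 UMIs. The T cell levels of these genes were lower in the anti–PD-1 library too. In T cells *Cx3cr1* was at 21.0 and 11.9 CPM and *Fcrls* at 5.72 and 2.89 CPM. *Tmem119* was at 5.53 and 1.73 CPM and *Gdf3* at 3.05 and 0.643 CPM there. The part of free RNA in the Kupffer cell values was not tested. *C3ar1* and *Ms4a7*, which were far above the T cell level, had ratios of −0.58 and −0.63.

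In classical monocytes, 3 of the 5 members that passed were at least 2-fold lower, with 2.1% of genes so called. This count, too, was fixed in part by the choice of members and is not read against that share. *C3ar1* was at −1.78 (−2.17 to −1.39), from 82.5 to 20.5 CPM, but at −0.17 (−1.41 to 1.15) in Y-marked monocytes, on 4 and 25 UMIs. *Cx3cr1* was at −1.64 and *Gdf3* at −1.50. In monocytes marked by Y in this way *Cx3cr1* was at −2.24 (30 and 40 UMIs) and *Gdf3* at −0.03 (−1.78 to 1.07), on 1 and 7 UMIs. *Gdf3* was at 4.72 CPM in these PBS monocytes, too low to reach −1 with 5 CPM added. *Ms4a7*, at 28.0 and 14.2 CPM, was close to the T cell levels of 20.2 and 13.8 CPM. *Fcrls* and *Gpr34* were under the filter, with 13 and 7 UMIs and with 3 and 0 UMIs.

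TAMs that had a Y-linked UMI and lacked *Xist* numbered 287 under PBS and 455 under anti–PD-1, which allowed a comparison of male-marked cells. A further 119 PBS TAMs had both marks, so a mark does not by itself settle the sex of a cell in that library. Neither mark was found in 745 PBS and 509 anti–PD-1 TAMs, with medians of 5569 and 2334 UMIs. The Y-marked TAMs had medians of 8477 and 8863 UMIs, so the comparison leaves out many shallow cells. All 7 members were lower in the Y-marked TAMs too, with a median of −0.74. Of the 7, 2 were at least 2-fold lower, where 1.23% of 9732 genes were, and the count is again not read against that share. *Gpr34* was at 116.9 CPM under PBS and 21.3 CPM under anti–PD-1, with a log2 ratio of −2.21 (−2.51 to −1.92). *Cx3cr1* was at 581.4 and 265.3 CPM, or −1.12 (−1.23 to −1.01). *Fcrls* was at −0.95 and *Ms4a7* at −0.70, both further below 0 than in all TAMs. *Gdf3* went the other way, to −0.69 (−0.98 to −0.40), from 62.4 to 36.8 CPM.

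Within the PBS library the members differed between Y-marked TAMs and the 1678 *Xist*-marked TAMs. *Gdf3* was at 62.4 CPM in Y-marked and 145.6 CPM in *Xist*-marked cells, a log2 ratio of −1.16 (−1.38 to −0.95). *Gpr34* (116.9 and 67.2 CPM), *Fcrls* (349.5 and 214.5 CPM) and *Ms4a7* (1307 and 970.8 CPM) were higher in the Y-marked cells, with log2 ratios of 0.76, 0.69 and 0.43. *Cx3cr1* was at 0.15, *C3ar1* at 0.04 (−0.04 to 0.12) and *Tmem119* at −0.19. Sex and animal cannot be told apart here, and the number of animals behind each mark is not given.

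The same split was seen for *Gdf3* in PBS Kupffer cells, where it had 4 UMIs in Y-marked and 75 in *Xist*-marked cells (2.96 and 16.6 CPM). In PBS monocytes *C3ar1* had 4 UMIs in the 31 Y-marked and 132 in the 195 *Xist*-marked cells, or 18.9 and 94.5 CPM, and anti–PD-1 Y-marked monocytes were at 16.3 CPM. The few UMIs leave the ratio between the libraries in Y-marked monocytes wide.

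**Figure D3:**
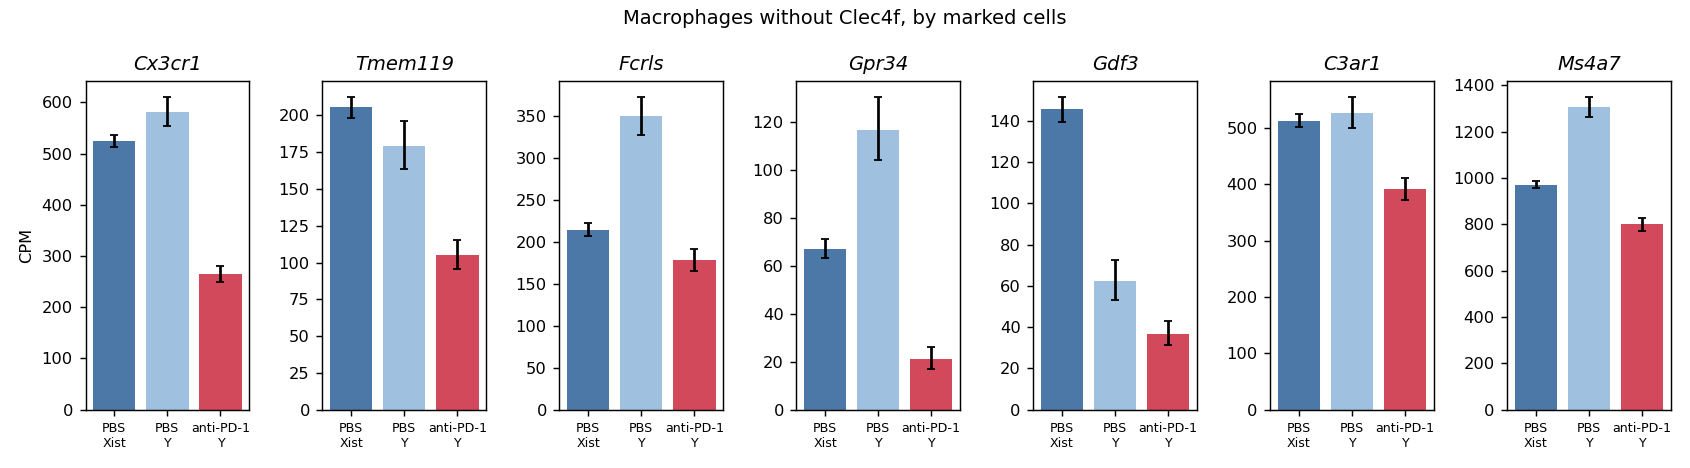
Level of each gene (CPM, each panel with its own axis from 0) in TAMs marked by *Xist* or by Y-linked UMIs, with exact Poisson 95% intervals, from 1 library per group. *Gdf3* is higher in *Xist*-marked and *Gpr34* in Y-marked PBS cells, and both are lowest in the anti–PD-1 cells.

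The members were also counted per cell, with each cell thinned to 1000 UMIs. Of 2751 PBS TAMs, 82.3% (80.9 to 83.7, exact binomial) had a UMI of at least 1 member, against 58.6% (55.1 to 62.1) of 805 anti–PD-1 TAMs. At least 3 members were found in 25.5% and 11.4% of these cells. The mean number of members per TAM was 1.71 and 1.02. Of T cells, 8.16% and 4.73% had a UMI of any member, which is not background alone, since T cells were above the background level for *Gpr34*. Their median depth before thinning was 2776 and 3695 UMIs, against 7708 and 5473 UMIs in TAMs.

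Single members followed the same direction. *Cx3cr1* was detected in 37.6% and 19.8% of thinned TAMs, *Ms4a7* in 51.8% and 37.9%, *C3ar1* in 35.7% and 23.7%, and *Tmem119* in 17.3% and 7.58%. *Fcrls* was at 13.8% and 8.94%, *Gdf3* at 8.76% and 2.61%, and *Gpr34* at 6.18% and 1.61%. All 21 pairs of members were detected together more often in PBS TAMs than the product of their shares, by 1.02-fold to 1.83-fold, and 18 of 21 pairs in anti–PD-1 TAMs, where the counts were low.

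**Figure D4:**
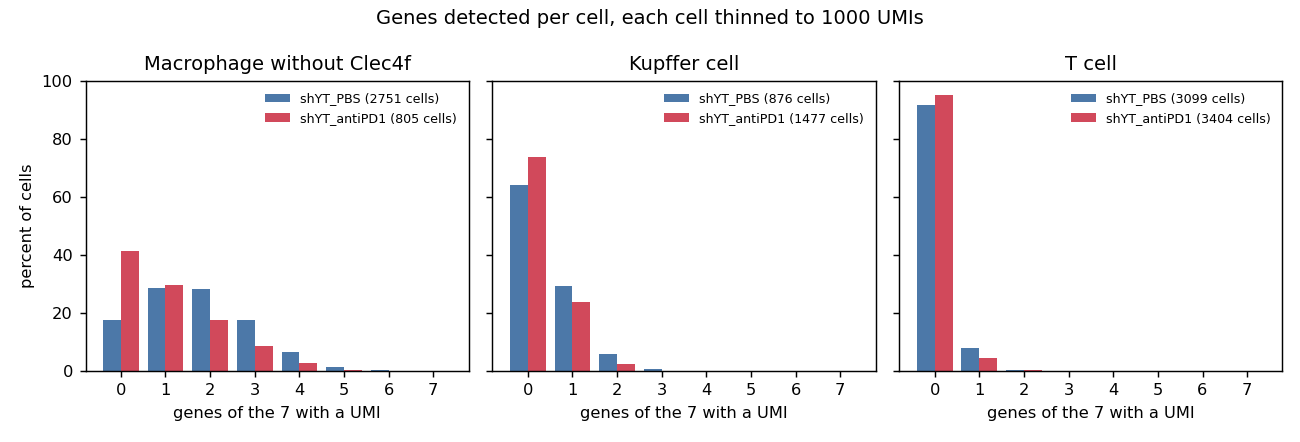
Percent of cells (vertical axis) with a UMI of 0 to 7 of the genes (horizontal axis), each cell thinned to 1000 UMIs, in TAMs, Kupffer cells and T cells of the 2 libraries. Anti–PD-1 TAMs are shifted to fewer genes, and few T cells have more than 1.

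Interferon-response genes and stress genes were far higher in anti–PD-1 TAMs, where the members were lower. Of 20 interferon-response genes, 17 were at least 2-fold higher in TAMs and none at least 2-fold lower, with a summed level of 1678 and 5240 CPM. *Isg15*, a ubiquitin-like interferon effector, was at 2.68 and the GTPase gene *Iigp1* at 2.68 on the log2 scale, while *Ciita* (0.03) and *Psmb8* (0.72) were lowest. Of 15 stress genes, 11 were at least 2-fold higher, with a summed level of 5671 and 16019 CPM. The early response gene *Nr4a1* was at 2.79 and *Fosb* at 2.47, while *Jun* (0.23) and *Hsp90aa1* (0.31) were lowest. Neither rise was particular to TAMs. In Kupffer cells 18 of 20 interferon and 10 of 15 stress genes were at least 2-fold higher (summed 1482 and 4401 CPM, and 7135 and 16796 CPM). In classical monocytes 20 of 20 and 9 of 15 were (1716 and 5920 CPM, and 6169 and 11654 CPM).

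TAMs with at least 2000 UMIs were therefore split by the interferon list, counted in each cell at 2000 UMIs. At least 4 of the 20 genes were detected in 498 of 2609 PBS TAMs (19.1%) and 504 of 679 anti–PD-1 TAMs (74.2%). With cells of both sexes, *Fcrls* hardly differed between the libraries within the strata. It was at 248.2 CPM (241.2 to 255.4) in PBS and 246.0 CPM (221.9 to 272.0) in anti–PD-1 TAMs under 4 genes, and at 138.5 CPM (127.7 to 150.0) and 133.0 CPM (122.5 to 144.1) in those with 4 or more. The log2 ratios were −0.01 and −0.06 within the strata, beside −0.48 for both strata together. The median of all genes was −0.13 and −0.15 within the strata.

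This did not hold in male-marked cells. In Y-marked TAMs, *Fcrls* was at 356.4 CPM (332.3 to 381.8) and 286.3 CPM (255.3 to 320.1) under 4 genes, a log2 ratio of −0.31 (−0.50 to −0.12). With 4 or more genes it was at 311.5 CPM (259.3 to 371.1) and 142.7 CPM (129.6 to 156.8), or −1.10 (−1.38 to −0.81). These strata held 241 and 105 and then 42 and 307 cells, and all 7 members were below 0 in both.

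With both sexes, *Ms4a7* was nearly equal in interferon-low TAMs, with 1051 and 1032 CPM (−0.03), but differed in interferon-high TAMs, with 953.4 and 748.6 CPM (−0.35). In Y-marked TAMs it was at −0.29 (−0.39 to −0.19) in the low and −0.90 (−1.03 to −0.76) in the high stratum. *C3ar1* was at −0.28 and −0.27 in the low and high strata of both sexes. The other members were also below 0 in both. *Gdf3* was at −2.07 in interferon-low and −1.55 in interferon-high TAMs, *Gpr34* at −1.48 and −1.08, *Cx3cr1* at −0.71 and −1.02, and *Tmem119* at −0.54 and −0.89. In Y-marked TAMs, *Gdf3* was at −0.84 (−1.36 to −0.32) in the low stratum, short of 2-fold, and at −1.47 in the high one. *Gpr34* was further below 0 there, at −2.08 and −2.40. The interferon-low anti–PD-1 stratum held 175 cells, with 43 UMIs of *Gdf3* and 39 of *Gpr34*.

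**Figure D5:**
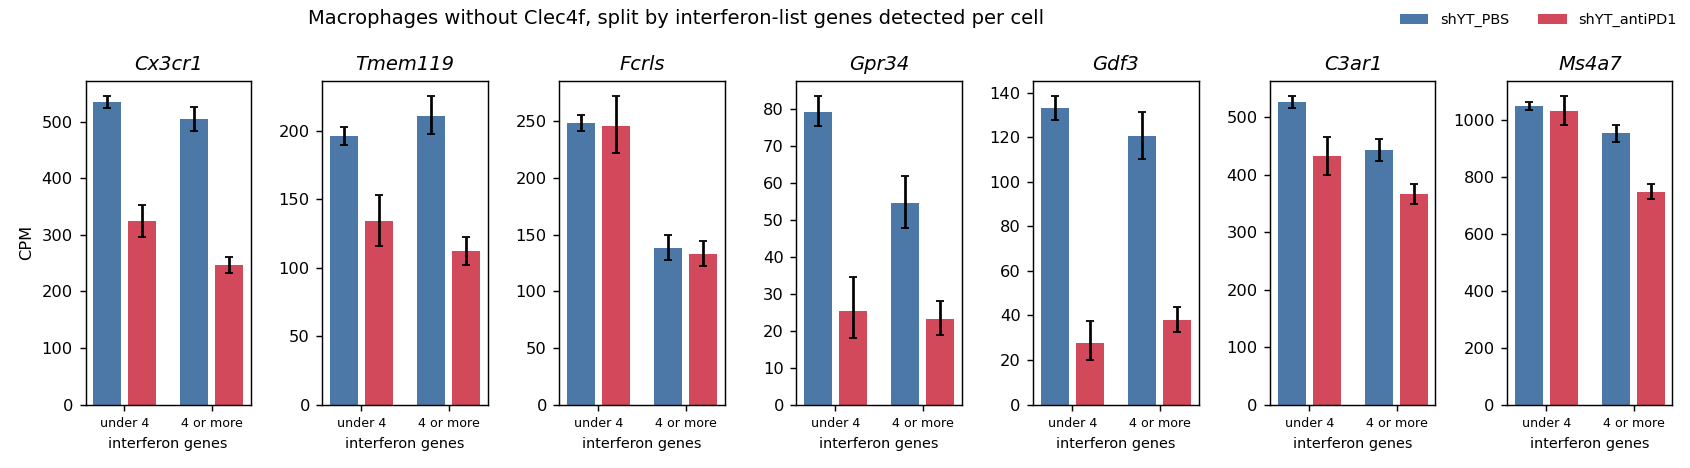
Level of each gene (CPM, each panel with its own axis from 0) in TAMs with under 4 or with 4 or more interferon-list genes at 2000 UMIs, by library, with exact Poisson 95% intervals. Cells of both sexes are included. The libraries coincide within each stratum for *Fcrls*, which they did not in Y-marked cells, and differ in both for *Cx3cr1*, *Tmem119*, *Gpr34*, *Gdf3* and *C3ar1*.

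TAMs were split by the stress list in the same way. At least 8 of 15 stress genes were detected in 630 of 2609 PBS TAMs and 525 of 679 anti–PD-1 TAMs. The members' median log2 ratio was −0.72 in the stress-high and −1.01 in the stress-low cells, 154 of which were in the anti–PD-1 library, and all 7 members were below 0 in both. All 7 were also below 0 with and without monocyte markers (medians −0.73 and −0.74) and with and without at least 3 of 6 lipid-associated macrophage genes (−0.58 and −0.89). *Gdf3* was furthest below 0 in the lipid-associated cells, at −2.80. Among cells with at least 2 of 6 resident macrophage genes, of which the anti–PD-1 library had 21, 5 of 7 members were below 0 (median −0.43). The median of all genes was also below 0 in each of these strata, from −0.17 to −0.08, the latter in the resident stratum.

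Markers of other cells in the TAM class moved as well. The 7 Kupffer markers summed to 185.1 and 442.2 CPM, with *Clec4f* at 0 by the gate, and the 7 neutrophil markers to 331.9 and 1082 CPM with none at 0, while the 8 macrophage markers summed to 20146 and 18382 CPM. In Y-marked TAMs the Kupffer markers summed to 186.0 and 429.1 CPM and the neutrophil markers to 235.2 and 1003 CPM. The part of such RNA in the members' values was not tested.

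Other genes of the microglial program were followed through a list of 56 genes. Of these 51 passed the filter, 2 were at least 2-fold lower and none at least 2-fold higher, with a median log2 ratio of −0.33 beside −0.14 for all genes. *Gas6*, a bridging ligand for the clearance of dying cells, was at −1.66 (81.0 and 22.2 CPM) and the lipid receptor gene *Trem2* at −1.03. The other lowest were *Slco2b1* (−0.87), the lysosomal protease gene *Ctsd* (−0.80) and *Cd33* (−0.77). The highest were *Gpr84* (0.58), *Aif1* (0.39) and *Il10ra* (0.35).

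TGF-β, which maintains the microglial program in the brain, was followed through 23 listed genes. Of 19 that passed, none was at least 2-fold lower and 3 were at least 2-fold higher, with a median of −0.16. The TGF-β target *Pmepa1* was at −0.80 and the receptor gene *Tgfbr1* at −0.75, while the latent binding protein gene *Ltbp1* (1.50) and *Tgfb3* (1.28) were highest, at 16.6 and 16.8 CPM in anti–PD-1 TAMs. *Tgfb1* itself was at −0.06 (215.8 and 207.2 CPM).

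Ligands, enzymes and partners of the members numbered 23, of which 14 passed, none was at least 2-fold lower and 2 were at least 2-fold higher (median −0.19). These were *Cfb*, complement factor B of the pathway that cleaves C3, at 1.84 (17.9 and 77.1 CPM), and *Csf1*, the macrophage growth factor, at 1.03. The lysophosphatidylserine lipase gene *Abhd12* (−0.59) and *Rxra* (−0.47) were lowest.

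The relatives of *Ms4a7* and *Fcrls* did not move as one. Of 9 tested *Ms4a* genes, *Ms4a4a* was at least 2-fold lower (−1.52) and *Ms4a4c* (2.38) and *Ms4a8a* (1.35) at least 2-fold higher, with *Ms4a14* at −0.62 and a median of 0.23. These paralogs share sequence, and how the counting placed shared reads is not stated. Of 7 tested Fc receptor genes, *Fcgr4* was higher (1.29) and none at least 2-fold lower, with *Fcgr1* at 0.53, *Fcrl1* at −0.46 and *Fcgr3* at −0.15.

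Monocyte genes in TAMs were split, with 5 of 12 tested at least 2-fold higher and 2 at least 2-fold lower (median 0.43). The 14 listed genes summed to 1563 and 2802 CPM in all TAMs and to 915.6 and 3146 CPM in Y-marked TAMs. *Thbs1* (2.90) and *Ly6c2* (2.66) were highest, *F13a1* (−1.30) and *Chil3* (−1.27) lowest. Of 6 lipid-associated genes, *Gpnmb* (−1.46) and *Trem2* were at least 2-fold lower and none higher, with *Fabp5* at −0.90, *Spp1* at −0.17 and *Cd9* at 0.05. Of 5 tested resident macrophage genes, *Gas6* was lower and the phosphatidylserine receptor gene *Timd4* higher (1.92), with *Mrc1* at −0.97 and *Cd163* at −0.01. After *Xist*, the genes with the lowest ratio in TAMs were the immunoglobulin gene *Igha* (−2.86), *Gdf3*, the immunoglobulin gene *Igkv6-15* (−1.77) and *Retnla* (−1.70), a gene of alternatively activated macrophages.

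Patterns across the 16 classes and 2 libraries (32 summed profiles, which share libraries and free RNA) were compared by Pearson's r of log2 levels over 11770 genes. The profiles hold both libraries, so likeness between members is fixed in part by how they were chosen. *Cx3cr1* was most like *Gdf3* (0.93), *Fcrls* (0.92) and *Ms4a14* (0.89). *Fcrls* was most like *Ms4a14* (0.95), and *C3ar1* like *C1qb* (0.96), *Ms4a7* (0.95) and *C1qc* (0.94). *Tmem119* was most like *Olfml3* (0.91), *Slco2b1* (0.90) and *Ang* (0.90). *Gpr34* stood apart, with *Nfatc2* (0.73), *Gtf2h2* (0.70) and *Fhad1* (0.67), and its r with the other members ran from 0.37 (*Tmem119*) to 0.63 (*Fcrls*).

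In the GENCODE vM21 annotation of mm10, *Gdf3* (chromosome 6, 122605403 to 122610087) and *C3ar1* (122847138 to 122856161) both lie on the reverse strand, 237050 bases apart, with 4 protein-coding genes between them. The nearest to *Gdf3*, *Dppa3*, was named after its values were seen. PBS TAMs had 360 UMIs of it (15.3 CPM, 13.7 to 16.9) and anti–PD-1 TAMs 22 UMIs (3.48 CPM, 2.18 to 5.27). Its log2 ratio was −1.26 (−1.52 to −0.96). Unlike *Gdf3*, it was at 14.4 CPM in *Xist*-marked and 16.1 CPM in Y-marked PBS TAMs, and at 2.39 CPM in Y-marked anti–PD-1 TAMs. *Slc2a3* (7.25 and 6.96 CPM) and *Foxj2* (28.3 and 25.3 CPM), further along, differed little, and *Nanog* had no UMI.

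*Cx3cr1* is annotated from 119901616 to 120069879 on chromosome 9, a span of 168264 bases that overlaps 9 other genes. Among these, *Csrnp1* on the same strand was at 17.5 and 220.6 CPM in TAMs, opposite in direction to *Cx3cr1*. *Csrnp1* was higher in every other class of at least 50 cells too, such as neutrophils (79.7 and 418.3 CPM) and T cells (30.7 and 135.6 CPM). *Gpr34* (chromosome X, 13632089 to 13640858, forward strand) lies inside *Cask* on the other strand, which was at 29.9 and 19.0 CPM (−0.54). Strand handling is not given in the sources used here, so reads shared by overlapping genes leave *Cx3cr1* and *Gpr34* uncertain to that extent. *Tmem119* (chromosome 5, 113793729 to 113800516), *Fcrls* (chromosome 3, 87250758 to 87263738) and *Ms4a7* (chromosome 19, 11321039 to 11336146) overlap no other gene.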

How the data were processed

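The authors deposited UMI counts, not normalized, for each gene in each cell barcode. They were made, per the labels and methods, with the Singleron software for GEXSCOPE libraries against mm10. The software version, gene annotation and strand handling are not given in the sources used here, and the submitters' processing notes name Seurat 4.3. The cell numbers the study kept were not used here.

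UMIs were summed per library and class with Python 3.11.15, numpy 2.4.6 and scipy 1.17.1, and divided by the class total (CPM). Classes were set by the mean scaled log level of marker lists (score of at least 0.2, a lead of 0.05 over the next class, at least 3 detected markers). Kupffer cells had a Kupffer score of at least 0.3 and a *Clec4f* UMI, and 4.00% (PBS) and 10.9% (anti–PD-1) of macrophages lay within 0.1 of that limit. Log2 ratios used a pseudocount of 5 CPM, so they understate the change of low genes. Genes needed a mean of 5 CPM. Intervals are 95% (exact Poisson, exact binomial, or both limits combined for ratios) and cover counting error only. The ratio and its interval were checked on simulated Poisson counts, which leave out variation between cells and animals. Doublets were scored with Scrublet in scanpy 1.11.5, whose automatic threshold marked 0 cells, and none were removed from the values reported. Cells were thinned without replacement.

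With 1 library per group no test was possible and no count model was used. The members and lists were chosen with earlier results of these data known, and the score limits and splits after marker values were seen. Genes named were all members, the lowest and highest of each list in TAMs (5 and 3 for the microglial list, 2 and 2 for others), the 5 lowest genes in TAMs, and the 3 most alike per member. Genes named outside this rule were chosen after their values were seen. Figures were drawn with matplotlib 3.10.9.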

Additional observations from a re-analysis of the deposited data

Results flagged for a closer look

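*C3ar1* was the only member with an interval above 0 in any class of at least 50 cells in which it passed the filter. In tumor or biliary epithelial cells it went from 7.46 CPM (48 UMIs) to 13.5 CPM (40 UMIs), a log2 ratio of 0.57 (0.15 to 0.99), whereas in TAMs it was at −0.45 (−0.52 to −0.39). T cells were at 12.7 and 7.58 CPM, with intervals that do not overlap those of the epithelial cells in either library. The difference between the classes was not tested.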

How the results depend on the processing

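Under 12 alternatives all 84 member values in TAMs stayed below 0, and under 8 alternatives all 56 did in Kupffer cells and 53 of 56 in monocytes. A value below 0 is not by itself below the bulk of genes. In interferon-low TAMs, *Fcrls* (−0.01, −0.16 to 0.14) and *Ms4a7* (−0.03) were above the median of all genes, −0.13. The number of members at least 2-fold lower in TAMs, 3 as reported, ranged from 1 to 4, with 1 in male-marked interferon-low TAMs. Median of ratios scaling, which moves the median of all genes in TAMs from −0.14 to −0.02, moved the members' median there to −0.65 and *Cx3cr1* to −0.89. Equal weight per cell (1000 UMIs each) moved the TAM median to −1.09. In interferon-low, stress-low and male-marked interferon-low TAMs, alternatives chosen after seeing the data like the use of all macrophages regardless of *Clec4f* and the removal of the 5% of cells with the highest doublet score, it was −0.54, −1.01 and −0.40. Male-marked cells gave −0.65 in Kupffer cells and −0.17 in monocytes, and *Fcrls* there at 0.48 on 0 and 3 UMIs. A pseudocount of 1 CPM gave −1.74 in Kupffer cells. Thinning to 1000 UMIs put *Tmem119* in monocytes at 0.97 (−0.74 to 2.27). With the stricter gate, TAMs were 5.18% of anti–PD-1 cells and monocytes 2.33% and 1.34% of PBS and anti–PD-1 cells. The share of TAMs with a UMI of any member was 95.5% and 69.1% without thinning and 93.0% and 77.6% at 2000 UMIs. The causes of these moves were not tested. No paired analysis was possible because each group is 1 library, and leaving out a replicate was not possible for the same reason. Depth limits the members in monocytes, where *Gpr34*, *Fcrls* and *Tmem119* had under 20 UMIs in each library.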
